A study of Mus musculus with 17 samples.

Results

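RNA of 15 to 50 nt that came down with an antibody against MAEL was set against total small RNA of the same size from mouse testis, using 3 of the 17 libraries of the series. The libraries were chosen by their labels: the 1 anti-MAEL library of this size class and the 2 wild-type total small RNA libraries, called library a and library b. All 3 came from wild-type testis of the 129SvJae strain, with no age given. For the immunoprecipitate, RNA bound with anti-Mael was extracted with Trizol and taken at 15 to 50 nt. For total small RNA no antibody was used: testis was homogenized in lysis buffer with Triton, the lysate was cleared by centrifugation, and RNA was extracted with Trizol and cut from a polyacrylamide gel at 15 to 50 nt. The same adapter-ligation kit made all 3 libraries. Some loci are also set beside Mael-/- total small RNA (2 libraries, same strain and protocol), anti-Mael RNA of 50 to 150 nt (1 library) and long RNA from anti-Mael (2 libraries) and IgG (1 library) immunoprecipitates, all but the Mael-/- libraries from wild type. Coding transcripts are also set beside wild-type mRNA of the same series (2 libraries). The labels do not tie the libraries to separate animals and do not give the number of testes in each.

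The tables of the 3 libraries share 38456 entries. Of these, 465 belong to 214 piRNA loci, many of which are listed several times with different sizes, and 37991 are Ensembl transcripts. Each locus was represented by its entry with the most counts, which left 38205 features. The 214 loci are of 2 kinds by name: 100 band-named loci, which carry a chromosome band (17-qA3.3-26735 lies on chromosome 17), and 114 gene-named loci, which carry the symbol of a gene after "pi-". The transcripts are 18273 with a coding part, 14107 noncoding ones over 200 nt and 5611 noncoding ones of up to 200 nt. The files give no coordinates and pair no gene symbols with the transcript IDs, so the markers of germ cells and of other testis cells were not analysed here.

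MAEL, or Maelstrom, is a germ cell protein of the piRNA pathway that collects with PIWI proteins in the cytoplasmic granules called nuage. piRNAs are small RNAs that guide PIWI proteins against transposons and other transcripts. In mouse testis most piRNAs of meiotic cells are cut from long single-stranded precursors made at intergenic clusters, and others come from the transcripts of ordinary genes, often from their 3′ untranslated regions.

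The immunoprecipitate held 169615966 counts, and total small RNA held 44416966 counts in library a and 7776989 in library b. The 2 total libraries differed by more than sampling noise (chi-square 12.03 per degree of freedom over 9123 features), so they were kept as 2 samples. At piRNA loci alone the chi-square was 118.8 per degree of freedom. The differences in level there were small in size: their median was 0.10 on the log2 scale and the largest was 0.54. Of 213 loci, 0 differed by over 2-fold. With 1 immunoprecipitate library there is no replicate check of the comparison, and no p-value is given. The IgG immunoprecipitate of the study is of long RNA, so the background of the antibody beads at 15 to 50 nt was not measured.

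Total small RNA was made up mostly of piRNA loci and the immunoprecipitate mostly of transcripts. Band-named loci took 79.4% and 78.6% of counts in total small RNA (79.0% ± 0.539, SD, n = 2) and 22.3% with anti-MAEL (exact 95% interval 22.31 to 22.33), which is 3.54-fold less. Gene-named loci went the other way in sum, with 3.83% and 3.81% in total small RNA (3.82% ± 0.0133, SD, n = 2) and 5.16% with anti-MAEL, 1.35-fold more. Coding transcripts took 5.31% and 5.46% (5.39% ± 0.110, SD, n = 2) against 32.9% with anti-MAEL, a 6.11-fold larger share. Noncoding transcripts over 200 nt took 4.66% and 4.48% (4.57% ± 0.125, SD, n = 2) against 32.0%, a 6.99-fold larger share. Noncoding transcripts of up to 200 nt, which include the genes of many structured small RNAs, took 6.80% and 7.60% (7.20% ± 0.568, SD, n = 2) against 7.61% with anti-MAEL, next to the value of library b. The intervals and the SD cover counting error and the spread of 2 total libraries, and neither holds the spread between immunoprecipitates.

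**Figure D1:**
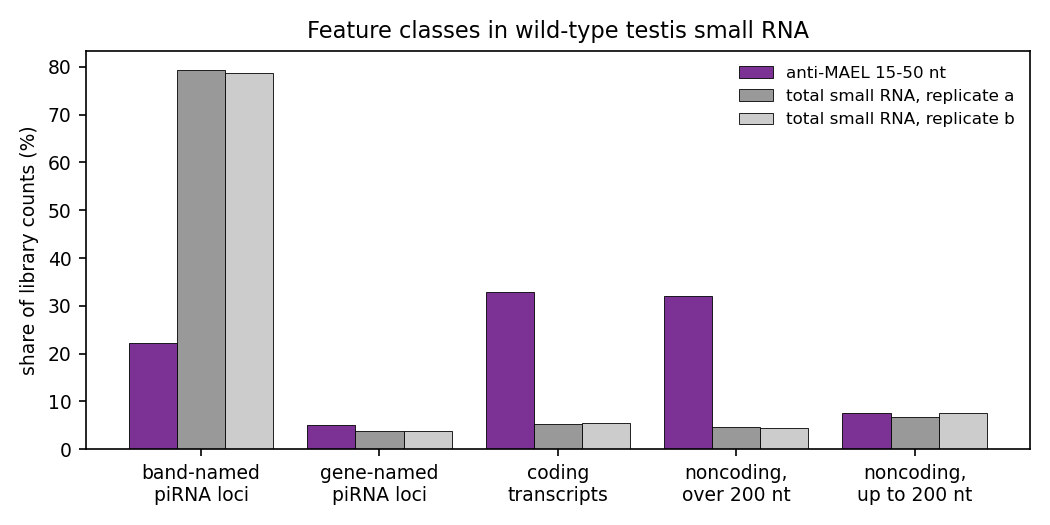
Share of library counts (%, y axis, from 0) taken by each of 5 feature classes (x axis) in the anti-MAEL 15-50 nt library and in each of the 2 total small RNA libraries. Band-named piRNA loci stand at 79.4% and 78.6% of total small RNA and 22.3% with anti-MAEL, while coding and long noncoding transcripts stand at 32.9% and 32.0% with anti-MAEL.

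Ratios were then taken for each feature. Levels are in CPM, counts scaled to a common library total, and a log2 ratio is the log2 of anti-MAEL over the mean of the 2 total libraries after 0.5 CPM is added to each side. A feature was kept with at least 20 counts over the 3 libraries and at least 1 CPM either with anti-MAEL or in the mean of the total libraries, and was called higher or lower when anti-MAEL was over 2-fold from each total library. Of 10352 features kept, 59.3% were higher and 21.6% were lower, with a median of 1.86. That median holds 4175 features that were kept through the immunoprecipitate alone, which had to be higher there. Over the 6177 features kept by their level in total small RNA the median was -0.61, with 2310 higher and 2236 lower. This median is selected in the other direction: 2485 of these features were kept through total small RNA alone and had to be lower with anti-MAEL. Of the 100 band-named loci 99 were kept, and 14 were higher, 59 lower and 26 between, with a median of -1.67 (interquartile range -3.13 to 0.07). The locus left out, 1-qE2.3-2, had 21, 18 and 3 counts. All 114 gene-named loci were kept, and 32 were higher, 56 lower and 26 between, with a median of -1.12 (interquartile range -3.60 to 1.54). The median and the summed share of the gene-named loci thus differ in sign. With anti-MAEL, 210 of the 213 kept loci lay outside the range of the 2 total libraries. So did 10039 of all 10352 features kept, so this is no trait of the loci. The 3 loci inside the range were 10-qB4-6488, 13-qA5-156 and pi-Igsf9b.

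These ratios are shares of a whole library, in which transcripts took more room with anti-MAEL. When the level of each locus was expressed relative to piRNA locus counts alone, which moves the median of all features by 1.55, band-named loci had a median of -0.076 with 32 higher and 33 lower, and gene-named loci a median of 0.33 with 51 higher and 37 lower. The order of loci within a library is the same on either scale. What the loci show, apart from the common shift, is a wide spread: from -7.20 to 5.16 over band-named loci and from -7.39 to 6.29 over gene-named loci.

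**Figure D2:**
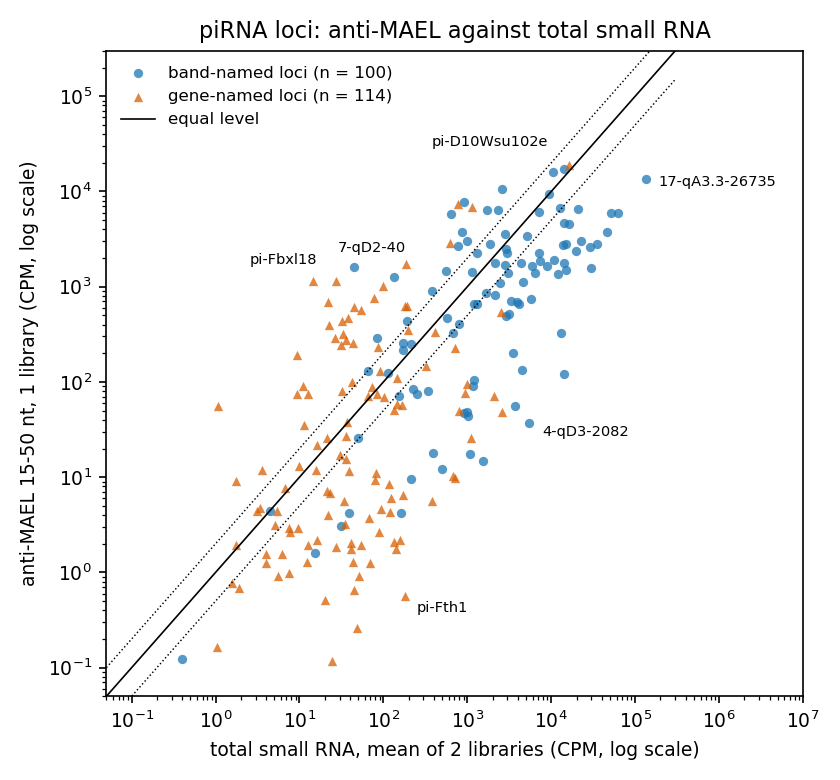
Level of each piRNA locus with anti-MAEL (y axis, CPM, log scale) against its mean level in the 2 total small RNA libraries (x axis, CPM, log scale), with 100 band-named loci as circles and 114 gene-named loci as triangles. The solid line marks equal levels and the dotted lines 2-fold differences; 59 band-named and 56 gene-named loci were over 2-fold below each total library, and the most abundant locus, 17-qA3.3-26735, lies below the lines.

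The order of the most abundant loci differed between total small RNA and the immunoprecipitate. The band-named locus 17-qA3.3-26735 led total small RNA with 143518 CPM in library a and 127890 CPM in library b and stood at 13390 CPM with anti-MAEL, 10.1-fold lower. Of the counts at piRNA loci alone, it held 17.2% and 15.5% in total small RNA and 4.87% with anti-MAEL. The next loci of total small RNA were lower by similar factors. The locus 2-qE1-35981 stood at 61523 and 64201 CPM against 5891 with anti-MAEL (log2 ratio -3.42), 6-qF3-28913 at 49815 and 53093 against 5870 (-3.13), and 14-qA3-19970 at 47432 and 44903 against 3768 (-3.61). Each of these 4 lay below both total libraries on either scale of the total.

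The immunoprecipitate was led by the gene-named locus pi-D10Wsu102e, at 18901 CPM against 16709 and 15900 CPM in total small RNA (log2 ratio 0.21). Second came 10-qC1-2617 with 17368 CPM against 14271 and 13843 CPM (0.31), and then 9-qC-31469 with 15954 CPM against 10296 and 10675 CPM (0.61). Next was 17-qA3.3-26735. The 3 leading loci were close to their total level, and their share of piRNA locus counts was larger: 6.88% for pi-D10Wsu102e against 2.01% and 1.93%, and 6.32% for 10-qC1-2617 against 1.71% and 1.68%. Of the other loci with most counts, 10-qC1-1527 stood at 10703 CPM against 2493 and 2741 CPM (2.03), and 10-qB4-6488 at 9295 CPM, between its 2 total values of 9678 and 9268. The locus 6-qD1-2831 stood at 7679 CPM against 919 and 900 CPM (3.08), and pi-Phf20, named for a subunit of a histone acetyltransferase complex, at 7393 CPM against 798 and 757 CPM (3.25). All 8 of these loci are at least 17682 nt long.

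Counts were spread over more loci in the immunoprecipitate. The loci that together held 50 percent of piRNA locus counts numbered 14 with anti-MAEL and 8 and 9 in total small RNA, and 90 percent was held by 56 against 42 and 43. The 10 leading loci held 41.5% with anti-MAEL and 55.1% and 54.1% in total small RNA. Of the 20 leading loci of the immunoprecipitate, 9 were among the 20 of library a and 9 among those of library b, whereas the total libraries shared 20 of 20. Per kilobase, 10-qC1-2617 was densest with anti-MAEL, at 523 CPM per kb against 430 and 417, followed by pi-Phf20 at 418 against 45.1 and 42.8. In total small RNA the densest was 17-qA3.3-26735, at 3422 and 3049 CPM per kb against 319 with anti-MAEL.

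Among band-named loci, the highest ratio was at 7-qD2-40, with 1614 CPM with anti-MAEL against 48.4 and 40.8 CPM in total small RNA, 36.2-fold higher. The next were 9-qF4-150, at 1275 against 134.5 and 130.4 CPM (log2 ratio 3.26), and 3-qA2-617, at 5806 against 609 and 675 CPM (3.18). After 6-qD1-2831 came 14-qA3-2286 (2.10), 10-qC1-1527, 13-qA5-208 (1.89) and 10-qB5.1-221 (1.77). Over the 8 loci the immunoprecipitate was 3.42-fold to 36.2-fold above the mean of the total libraries. These 8 loci were 10400 to 69605 nt long, and 8 of 8 were over 10 kb, compared with 59 of all 100 band-named loci. The next locus by ratio, 8-qA4-155, was as high to the second decimal (1.77) but only 1611 nt long, so the size of the group depends on where it ends.

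The band-named loci with the lowest ratios lay far below the class median of -1.67. The locus 4-qD3-2082 stood at 36.9 CPM with anti-MAEL against 5687 and 5263 CPM, 148.5-fold lower, and 8-qC5-8200 at 122 against 14689 and 13626 CPM, 116.4-fold lower. At 13-qA5-967 the level was 14.8 CPM against 1513 and 1531 CPM (log2 ratio -6.63), and at 4-qB3-277 it was 326 against 13299 and 13093 CPM (-5.33). The others were 11-qE1-3997 (-6.03), 1-qE3-706 (-5.90), 17-qC-935 (-5.28) and 13-qA3.1-213 (-5.10). All 8 were short, from 918 to 8336 nt, with 0 over 10 kb. The level of 4-qD3-2082 with anti-MAEL rests on 6253 counts. In total small RNA 8-qC5-8200 and 4-qD3-2082 were the densest loci after 17-qA3.3-26735, at 2963 and 2749 CPM per kb for 8-qC5-8200 and 2015 and 1865 CPM per kb for 4-qD3-2082, against 24.5 and 13.1 CPM per kb with anti-MAEL.

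Gene-named loci spread further. The highest ratio was at pi-Fbxl18, named for an F-box protein of ubiquitin ligases, with 1158 CPM against 15.9 and 12.7 CPM, 81.0-fold higher. At pi-Mcart1, named for a mitochondrial carrier, the level was 1145 against 29.1 and 25.1 CPM (log2 ratio 5.38), and at pi-Cramp1l, named for a chromatin protein, 683 against 25.1 and 18.4 CPM (4.94). Next were pi-Zfp866, a zinc finger gene (4.31), pi-Snx30, a sorting nexin gene (4.12), pi-Wipf2, whose protein binds the actin regulator WASP (3.74), and pi-Zyg11b, a ubiquitin ligase receptor gene (3.71). The locus pi-Nsd1, named for a histone methyltransferase, also falls here with 55.7 against 0.856 and 1.29 CPM (5.16), but that value belongs to its entry of 871 nt. Its entry of 12778 nt, which held more counts in total small RNA, gave -3.88, so its direction depends on the entry. All 8 were scarce in total small RNA, at 46.5 CPM or less. That level is also the denominator of the ratio by which they were chosen.

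The lowest gene-named locus was pi-Fth1, named for the heavy chain of the iron store ferritin, with 0.572 CPM against 189.7 and 167.9 CPM, 312.7-fold lower and resting on 97 anti-MAEL counts. At pi-Nr2c2, an orphan nuclear receptor gene, the level was 9.85 against 719 and 710 CPM (log2 ratio -6.11). At pi-Hist1h1a, a linker histone gene, it was 0.259 against 49.5 and 47.3 CPM (-6.01), with 44 anti-MAEL counts. The locus with most total small RNA in this group was pi-Tmem194, at 48.2 against 2531 and 2682 CPM (-5.74). The others were pi-Arhgap20 (-5.98), pi-Kctd7, a gene of the potassium channel tetramerization domain family (-5.97), pi-Mgll, the monoglyceride lipase gene (-5.95), and pi-Tktl2, a transketolase-like gene (-5.86). These 8 were chosen as the lowest among loci with anti-MAEL outside the range of the total libraries. They ranged from 747 to 7635 nt, and the 8 highest from 871 to 10654 nt, or from 4431 nt without pi-Nsd1, so the 2 groups of gene-named loci overlap in size with or without it.

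**Figure D3:**
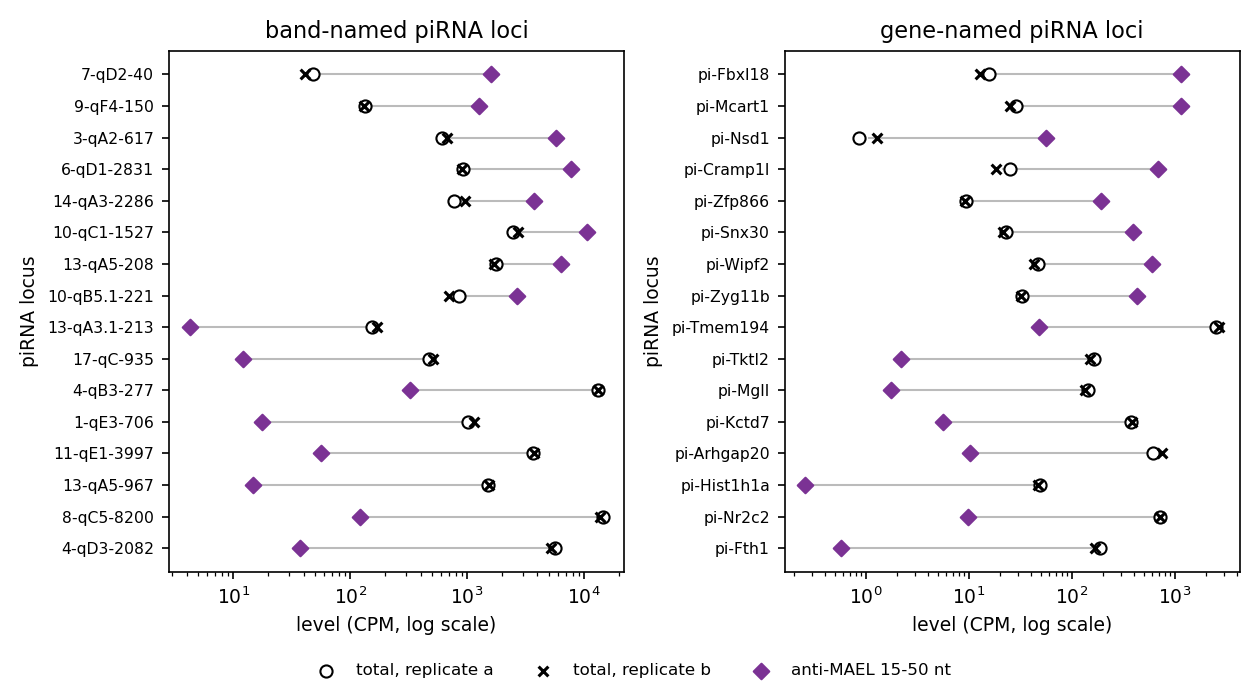
Level (CPM, log scale, x axis) of the 8 highest and 8 lowest band-named loci (left) and gene-named loci (right) by ratio, with the anti-MAEL library as a diamond and total small RNA library a as a circle and b as a cross. The 2 total libraries nearly coincide at each locus, as at 7-qD2-40 with 48.4 and 40.8 CPM. The anti-MAEL value lies apart from them, as at 1614 CPM there, because loci were chosen by that distance.

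The shortest loci had the lowest ratios. Band-named loci of up to 3 kb (n = 6) had a median log2 ratio of -4.75 and were 18.2-fold lower in summed level, those of 3 to 10 kb (n = 34) -1.90 and 5.59-fold, those of 10 to 30 kb (n = 31) -1.38 and 2.96-fold, and those over 30 kb (n = 28) -1.82 and 3.56-fold. Among band-named loci over 10 kb there was no further order by size. For gene-named loci the medians were -4.08 up to 3 kb (n = 6), -1.38 from 3 to 10 kb (n = 85) and 0.43 from 10 to 30 kb (n = 21), where the summed level was 4.03-fold higher. Only 2 gene-named loci were longer. The shortest gene-named class holds the 871 nt entry of pi-Nsd1, and with entries chosen by total small RNA its median was -5.33 (n = 5). Across loci, Spearman's rank correlation between log2 ratio and size was 0.25 over 99 band-named and 0.39 over 114 gene-named loci. Longer loci also hold more counts, and more so with anti-MAEL: the rank correlation between level and size was 0.82 with anti-MAEL and 0.60 in each total library for band-named loci, and 0.40 against 0.06 and 0.05 for gene-named loci. These are descriptions across loci that share their libraries and are not independent replicates.

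Several loci are listed with entries of different size, which gave a look within a locus. There were 68 loci whose longest entry was at least 1.5 times the shortest, with both at 5 CPM or more on average over the 3 libraries. This comparison was chosen after the data were seen. Over 35 band-named loci the ratio of the longest entry was over 2-fold above that of the shortest in 15 and over 2-fold below it in 3, and the median log2 ratio was -0.98 for the longest and -2.92 for the shortest. In the median band-named locus the shortest entry held 19.4% as many counts as the longest with anti-MAEL, against 49.3% and 50.9% in total small RNA. Gene-named loci did not do this in common: in 6 of 33 the longest entry was over 2-fold above and in 12 over 2-fold below, with medians of -3.56 and -3.60. Without coordinates it could not be checked that a short entry lies inside the long one.

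Single loci show how far the entries can part. At 15-qE1-1119 the entry of 6405 nt had 70.3 CPM with anti-MAEL against 533 and 540 CPM (log2 ratio -2.92), and the entry of 35228 nt had 3021 CPM against 976 and 997 CPM (1.61). At 14-qA3-2286 the entry of 4207 nt gave -1.93 and that of 32152 nt 2.10. The gene-named pi-Zfp652, named for a zinc finger protein, gave -4.87 in 2589 nt and 2.19 in 46197 nt, and pi-D10Wsu102e gave -3.90 in 3488 nt and 0.21 in 122736 nt. The short entries of these gene-named loci were scarce, at 0.242 and 0.519 CPM with anti-MAEL. That of pi-D10Wsu102e held only 0.083% and 0.097% as many counts as the long entry in total small RNA. At these 4 loci the short entry was below both total libraries and the long entry above both. The reverse was seen at pi-Mlec, named for a carbohydrate-binding protein of the endoplasmic reticulum, with 2.84 in 1800 nt and -1.18 in 5991 nt, and at the band-named 6-qF3-1063, with 2.54 in 5072 nt and -0.77 in 9875 nt. Over the 123 loci with several entries at 5 CPM or more, 41 had entries that differed by over 1 on the log2 scale.

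**Figure D4:**
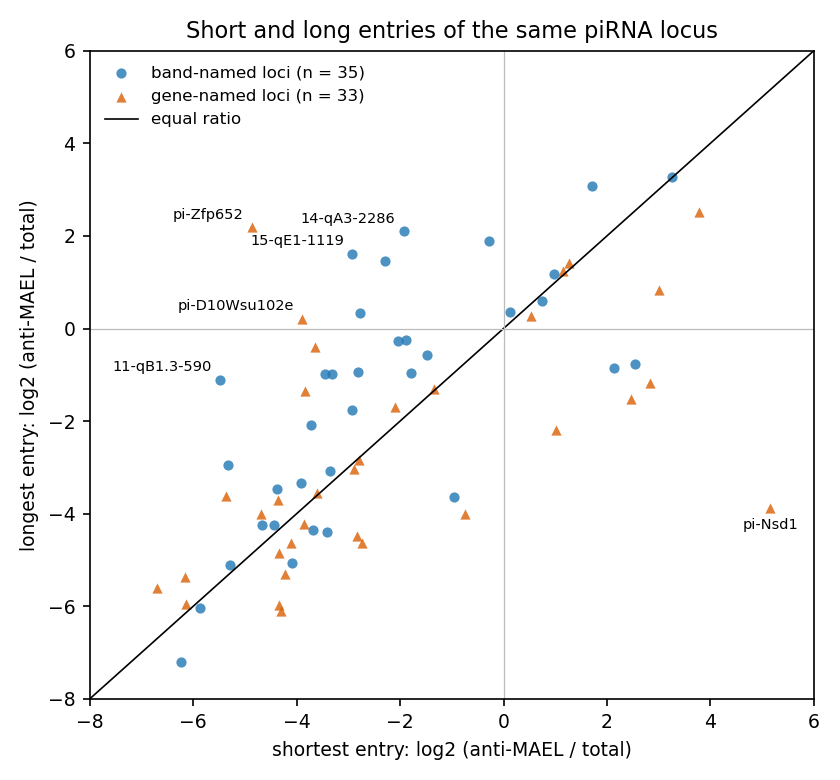
Log2 ratio of anti-MAEL to total small RNA in the longest entry of a piRNA locus (y axis) against that in its shortest entry (x axis), for 35 band-named loci (circles) and 33 gene-named loci (triangles), with the solid line at equal ratios. Band-named loci lie mostly above the line, 15 of them by over 2-fold, while gene-named loci lie on both sides of it, with pi-Zfp652 and pi-Nsd1 at the extremes.

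Loci that share a chromosome band did not share a ratio. In the 28 bands with at least 2 loci, which hold 75 loci, the SD of the log2 ratio within a band was 2.29, the same as the SD over all 75. In 12 bands some loci were above total small RNA and others below it, and in 22 bands the loci differed by over 2-fold. In band 17-qA3.3, 17-qA3.3-26735 stood at -3.34, 17-qA3.3-27363 at -1.66 (6491 CPM against 20428 and 20664) and 17-qA3.3-352 at 0.33. In band 9-qC, 9-qC-31469 was above total small RNA at 0.61 and 9-qC-10667 was below it at -3.07, with 2353 CPM against 19331 and 20245 CPM. The 5 loci of 13-qA5 ran from -6.63 to 1.89, and the 3 of 7-qD2 from -2.42 to 5.16. Other bands were even, such as 1-qD with -4.51 and -4.39 and 12-qE with -3.02 and -2.44.

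The levels of band-named loci with anti-MAEL at 15 to 50 nt ranked most like those in anti-MAEL RNA of 50 to 150 nt among the libraries compared. Over the 100 loci, Spearman's rank correlation was 0.63 with each wild-type total library, 0.77 and 0.78 with the 2 Mael-/- total libraries, 0.82 and 0.79 with the 2 long anti-MAEL libraries, 0.89 with anti-MAEL RNA of 50 to 150 nt and 0.51 with long IgG RNA. Size enters all these levels, and per kilobase the rank correlation was 0.31 and 0.30 with wild-type total small RNA, 0.47 and 0.48 with Mael-/- total small RNA, 0.44 and 0.34 with long anti-MAEL RNA, 0.72 with the 50 to 150 nt RNA and -0.07 with IgG. For the 114 gene-named loci the rank correlation was 0.41 and 0.40 with wild-type total small RNA, 0.26 and 0.21 with Mael-/- total small RNA, 0.23 and 0.18 with long anti-MAEL RNA and 0.74 with the 50 to 150 nt RNA. The points are loci of single libraries, and the correlations were not tested.

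Long anti-MAEL RNA stood above IgG at most band-named loci and at fewer gene-named ones: both long libraries were above it in 89 of all 100 band-named and 42 of all 114 gene-named loci. For 9-qF4-150 the long anti-MAEL libraries held 552 and 470 CPM against 37.8 CPM with IgG, and for 6-qD1-2831 they held 1925 and 1514 against 250.3 CPM. They were above IgG in 8 of the 8 highest and 6 of the 8 lowest band-named loci, and over 2-fold above it in 7 of the highest, with 7-qD2-40 near IgG at 10.5 and 9.35 against 8.74 CPM. They were over 2-fold above IgG in 3 of the 8 lowest band-named loci and in 69 of all 100. Of the 8 highest gene-named loci, 2 were above IgG in both long libraries, against 4 of the 8 lowest, and 0 were over 2-fold above it: pi-Fbxl18 stood at 10.7 and 14.8 against 12.5 CPM, pi-Mcart1 at 19.1 and 20.4 against 16.5 CPM and pi-Cramp1l at 37.0 and 51.7 against 53.2 CPM. The count over 2-fold was 1 of the 8 lowest and 15 of all 114 gene-named loci. The abundant pi-Phf20, at 249 and 195 against 42.4 CPM, was one of those 15. The IgG values come from 1 library of another size class and give no background for the 15 to 50 nt RNA.

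Small RNA of Mael-/- testis is set beside these values for the extremes, where it was measured against the same wild-type libraries. The locus 7-qD2-40 held 159.5 and 197.2 CPM in Mael-/- and pi-Fbxl18 28.3 and 32.7 CPM. The locus 4-qD3-2082 held 3743 and 2921 CPM. The lowest gene-named loci lay on either side of wild type: pi-Fth1 held 540 and 767 CPM, above wild type, and pi-Tmem194 1780 and 1369 CPM, below it. Of all 100 band-named loci, 73 were below wild type in both Mael-/- libraries and 17 above it. Of all 114 gene-named loci, 25 were below and 85 above. A link between these differences and the anti-MAEL ratio was not tested.

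Coding transcripts with anti-MAEL did not follow the level of their mRNA. Of the 18273 coding transcripts 6171 were kept, of which 3360 were higher and 1295 lower, with a median log2 ratio of 1.59. These counts are 54.4% and 21.0% of the coding transcripts kept, near the 59.3% and 21.6% of all features. The sign of that median depends on the filter. Of the transcripts kept, 2491 were kept through the immunoprecipitate alone and had to be higher there. Over the 3680 kept by their level in total small RNA the median was -0.78. Of those 3680, 1789 were kept through total small RNA alone and had to be lower with anti-MAEL. Over the 11315 coding transcripts with at least 1 CPM in wild-type mRNA of the same study, Spearman's rank correlation with the mRNA level was 0.09 for anti-MAEL 15 to 50 nt RNA, 0.49 and 0.56 for total small RNA, 0.45 for anti-MAEL RNA of 50 to 150 nt, 0.69 and 0.71 for long anti-MAEL RNA and 0.73 for long IgG RNA. When these transcripts were put into 4 groups of near-equal size by mRNA level, from lowest to highest, the numbers at 1 CPM or more with anti-MAEL were 772, 808, 769 and 791. In total small RNA the numbers grew with the mRNA, as 314, 552, 799 and 1233 in library a and 309, 590, 1053 and 1828 in library b. The mRNA tables count only the coding part of a transcript, as their sizes show, so length enters these relations.

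**Figure D5:**
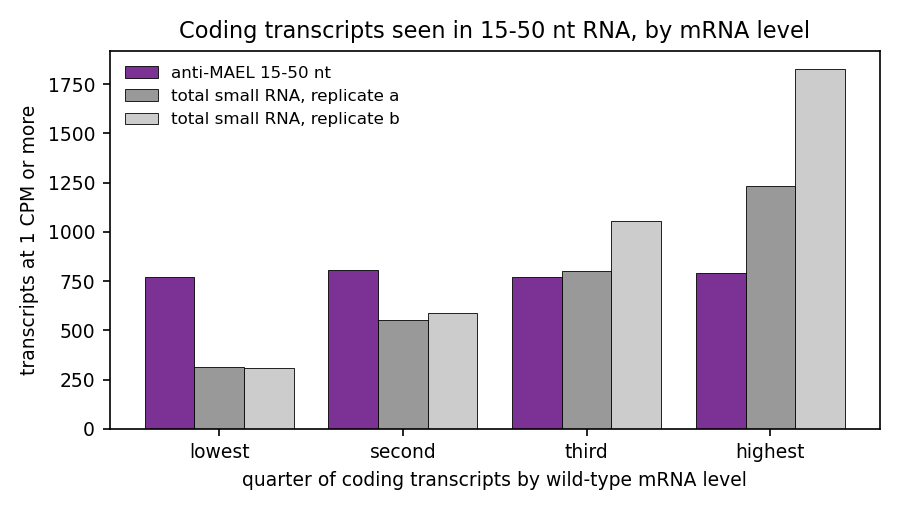
Number of coding transcripts at 1 CPM or more (y axis, from 0) in each of 4 groups of near-equal size ordered by wild-type mRNA level (x axis), for the anti-MAEL 15-50 nt library and each total small RNA library. With anti-MAEL the 4 bars lie between 769 and 808, and in total small RNA they climb from 314 to 1233 and from 309 to 1828.

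Single transcripts reached ratios beyond those of any piRNA locus. The coding transcript ENSMUST00000115614 (4698 nt) stood at 984 CPM with anti-MAEL against 0.811 and 0.514 CPM. The coding transcript ENSMUST00000005601 (2657 nt) stood at 318 CPM with 0 counts in both total libraries, at least 824-fold higher when each 0 is taken as 3 counts of library b, 0.386 CPM. In long RNA it was at 0 with IgG and nearly so with anti-MAEL, at 0 and 0.0926 CPM. The lowest were 2 short noncoding transcripts with nearly the same counts, ENSMUST00000122512 (184 nt), at 5.88 against 4065 and 4427 CPM, and ENSMUST00000083808 (133 nt), at 6.06 against 4067 and 4433 CPM. Whether they count the same reads was not tested.

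The near-equal share of short noncoding transcripts hid opposite differences in the summed shares of its size groups. Those of 121 to 130 nt took 5.56% of counts with anti-MAEL and 0.112% and 0.0956% in total small RNA. Within them, the 99 transcripts of exactly 121 nt took 4.27% against 0.0583% and 0.0499%. Those of 131 to 150 nt took 0.0655% with anti-MAEL against 1.24% and 1.35%, and those of 151 to 200 nt 0.149% against 4.83% and 5.34%. With anti-MAEL the share was also larger up to 100 nt (0.536% against 0.110% and 0.115%) and at 101 to 120 nt (1.30% against 0.511% and 0.697%). Of the transcripts kept in the class, 57.5% were higher and 32.0% lower, against 59.3% and 21.6% of all features. At 121 to 130 nt 106 of 116 were higher and 7 lower, and up to 100 nt 326 of 424 were higher and 67 lower. At 101 to 120 nt 151 of 410 were higher and 205 lower. The counts were 14 and 16 of 33 at 131 to 150 nt and 22 and 49 of 93 at 151 to 200 nt. The sums rest on few members: the 50 leading transcripts of each library held 90.6% and 88.8% of the class counts in total small RNA and 58.0% with anti-MAEL. The 121 nt class was small in the other immunoprecipitates, at 0.192% at 50 to 150 nt, 0.0263% and 0.0134% in long anti-MAEL RNA and 0.00207% with IgG. Many short noncoding transcripts are near-identical copies, and the authors' rule for reads with several matches is not known here, so the split among members is uncertain. The same holds for 16 gene-named piRNA loci whose counts equal those of a coding transcript in all 3 libraries.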

How the data were processed

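The deposited files hold raw counts of reads per feature, made by the authors, with the size of each feature in nt beside them. TopHat2 2.0.7, Bowtie2 2.0.6 and CASAVA 1.8, with the build mm9, appear in the submitters' processing notes without roles. Counting rules, strand use and the treatment of reads that match several features are not given in the sources used here. Per the labels' protocols the library kit keeps the strand. Groups came from the labels. Only features listed for all 3 libraries were used, with 1 entry per locus, the one with most counts over the 3 libraries. Counts were divided by library totals (CPM), and log2 ratios used a pseudocount of 0.5 CPM. Shares have exact (Clopper-Pearson) 95% intervals, which, like the floor of 3 counts for a count of 0, cover counting error only, since PCR copies of a molecule were not told apart. With 1 immunoprecipitate library no test was made. The named loci are the 8 with most anti-MAEL counts and, in each kind, the 8 highest and 8 lowest ratios among loci that averaged 5 CPM or more, with anti-MAEL outside the range of the total libraries. At most 2 transcripts were named in each direction. Loci named for their band, their entries or their total level were chosen after their values were seen. The members and lists were chosen with earlier results of these data known. Alternatives were TMM scaling (edgeR 4.0.16), size factors (DESeq2 1.42.0, both in R 4.3.3), piRNA locus counts as the total, other pseudocounts and filters, leaving out a total library and summing all entries of a locus. The row with most counts in the total libraries and a filter on these libraries alone were added after the data were seen. The ratio script was tested on simulated data. Tables and plots came from pandas 2.3.3, matplotlib 3.10.9, scipy 1.17.1 and numpy 2.4.6 under Python 3.11.15.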

Additional observations from a re-analysis of the deposited data

Results flagged for a closer look

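The immunoprecipitate tables list 2 entries named by GenBank records that are not in the total small RNA tables, so they entered none of the comparisons above. They are singled out because no result above covers their counts. Together they took 1.83% as many counts as all shared features with anti-MAEL at 15 to 50 nt, 1.51% at 50 to 150 nt and 0.780% and 0.580% in long anti-MAEL RNA, against 0.0763% in long IgG RNA, which is not of the 15 to 50 nt class. Per kilobase they stood at 1027 CPM (7713 nt) and 2001 CPM (5213 nt) with anti-MAEL at 15 to 50 nt, and 0 of the 214 piRNA loci were denser, the densest being 10-qC1-2617 at 523 CPM per kb. Transcripts were not ranked per kilobase, and how reads with several matches were counted is not known.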

How the results depend on the processing

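No paired analysis was possible because the immunoprecipitate is 1 library without a replicate letter. Medians are log2 ratios, in the order band-named loci, gene-named loci, coding and noncoding transcripts where 4 are given. With size factors every class value stayed close to that reported. TMM scaling gave medians of -1.32, -0.80, 1.81 and 2.68. With piRNA locus counts as the total they were -0.076, 0.33 (the sign of gene-named loci turned), 3.11 and 4.06, with 32 band-named and 51 gene-named loci higher and 33 and 37 lower, and 654 coding and 453 noncoding transcripts lower; 85.5% of calls were then higher, against 73.3%. Summing all entries of a locus gave medians of -1.20, -0.32, 2.16 and 2.89, log2 ratios of summed shares of -1.41, 0.82, 3.24 and 2.38, and 737 coding and 523 noncoding transcripts lower. A pseudocount of 0.1 CPM gave medians of -1.25 for gene-named loci, 2.23 for coding and 3.60 for noncoding transcripts. With 5 CPM these were -0.51, 0.35 and 0.79, with 1942 coding and 1762 noncoding transcripts higher and 318 and 250 lower. Without a filter the coding and noncoding medians were 0.30 and 0.10. At a mean of at least 10 CPM they were 4.31 and 4.23, with 1125 and 1140 higher and 152 and 198 lower. With the filter on the total libraries alone they were -0.78 (sign turned) and 0.85, with 1145 and 1119 higher. Features seen mainly in the immunoprecipitate drop out there while those seen mainly in total small RNA stay. Under that filter 50.8% of calls were higher. Leaving out 1 total library gave coding medians of 1.28 to 1.81 and gene-named medians of -1.15 to -0.86, and 1371 to 1982 coding transcripts lower, the most without library a. Over the named loci 304 alternative values stayed within the spread of the total libraries, 151 moved and 1 reversed, pi-Nsd1 at -3.88 when its entry was chosen by total small RNA. Every named locus moved with TMM scaling and with piRNA locus counts as the total, settings that change only the library totals. The cause of the other moves was not tested. Depth limits library b most, with 7776989 counts.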
